A study of Rattus norvegicus with 2 samples.

Results

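Crowded domains are stretches of rat chromosomes in which at least 8 peaks of acetylated lysine 27 of histone H3 (H3K27ac) follow each other closely in postnatal day 15 sciatic nerve. They were chosen by a rule on the peak positions. On the numbered chromosomes, neighbouring peaks were joined when the gap between the end of one and the start of the next was 12.5 kb or less, and every joined domain of 8 or more peaks was kept. The rule gave 240 crowded domains out of 18208 domains, single peaks included. Their members were 2337 of the 32205 peaks on the 20 numbered chromosomes, or of 32996 peaks in the whole list, which also holds X.

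The peak list comes from chromatin immunoprecipitation followed by sequencing (ChIP-seq) of H3K27ac in sciatic nerves of Sprague Dawley rats, combined from several animals at postnatal day 15. The series has 1 H3K27ac library and 1 input library from the same tissue, with no treatment, no second genotype and no replicate. Per the labels' protocols, chromatin was sonicated to fragments of 0.5 to 2 kb on average, which bounds how finely peak edges and short gaps are resolved. The only values are peak starts and ends, so read depth and peak height are unknown, and no interval based on reads is given.

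H3K27ac is deposited by the acetyltransferases CBP and p300 and marks active promoters and enhancers. Long runs of acetylated elements are known from loci that hold many enhancers, often near genes that define a cell type, and also from gene-dense stretches with many active promoters. At this age Schwann cells, the glia that wrap peripheral axons, are building myelin, but the nerve also holds fibroblasts, perineurial and endothelial cells and immune cells. The list therefore describes a mixed tissue, and the cell type behind any one domain was not tested. Domains of this kind are called super-enhancers when they are ranked by ChIP signal. No signal is in the list, so that name is not used here.

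The number of peaks, the span and the upper limit of the gaps follow from the rule and are given as description, with no test. Gaps below that limit also depend on the rule, because a long run of gaps within the limit can favour regions of short gaps. Peak length was not a criterion of the rule, but it is not free of it. Gaps run from the end of one peak to the start of the next. At the same spacing of peak centres, longer peaks thus leave shorter gaps and are joined more readily. Length also comes from the same library, and neighbouring peaks are not independent, so no test was made on it either. Every difference below is between classes of regions in 1 list and carries no replicate error.

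Most crowded domains were close to the minimum size. There were 101 domains of 8 peaks and 49 of 9, together 62.5% of the 240. Domains of 12 or more peaks numbered 43, those of 16 or more 12, and the most populous held 18 peaks. The crowded domains were 1.32% of all domains on the numbered chromosomes, held 7.26% of the peaks and 10.98% of the covered length (7.95 of 72.5 Mb). The 2880 domains of 3 to 7 peaks, which serve for comparison, held 35.3% of the peaks and 41.9% of the covered length.

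**Figure D1:**
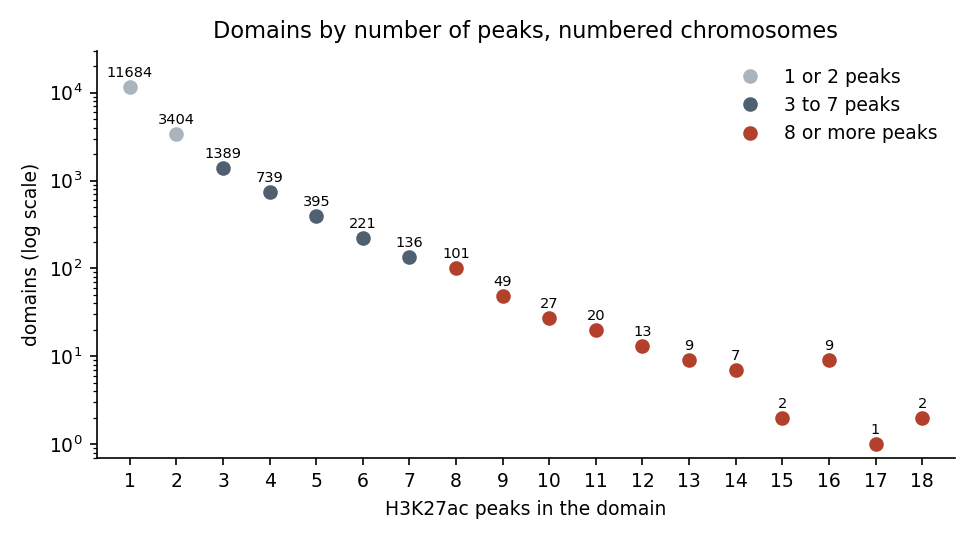
Number of domains (vertical axis, log scale) by the number of H3K27ac peaks they hold (horizontal axis), on the numbered chromosomes, with 1 point per domain size and its count printed above. The counts fall from 11684 single peaks to 136 domains of 7 peaks and 101 of 8, without a break at the minimum of 8 that defines crowded domains.

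The counts of domains fell steadily through the minimum of 8 peaks. Of all domains, 35.8% went on from the first peak to another one within the stitching distance. The share that went on to a further peak was 47.8% at 2 peaks, and pooled over sizes it was 56.1% at 3 to 4 peaks and 61.7% at 5 to 7. At 8 to 11 peaks it was 63.0%, and at 12 to 18 peaks 65.6% (82 of 125 steps). By single sizes the shares were less even, with 63.8% at 7 peaks, 57.9% at 8 (139 of 240), 64.7% at 9 and 70.0% at 10. The pooled share thus rose over the small domains and less above 5 peaks.

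Crowded domains had a median span of 68.2 kb, with quartiles at 55.9 and 83.1 kb and a range from 29.1 to 195.4 kb. Peaks covered a median of 29.0 kb of it (quartiles 21.2 and 41.2 kb). Domains of 3 to 7 peaks had a median span of 22.3 kb and a median covered length of 8.24 kb. Both quantities grow with the number of peaks by construction, so they were also compared in forms that do not.

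The covered share, the part of a span that lies in peaks, had a median of 43.9% in crowded domains (quartiles 34.5 and 53.6%) and 38.7% in domains of 3 to 7 peaks (28.3 and 52.6%). The difference of 5.15 percentage points was small beside the spread between domains, which had an SD of 13.5 percentage points among the crowded ones. Crowded domains were also less varied, as sums over more peaks are by construction: 5.00% of them (12 domains) were covered to under 25%, against 17.99% of the smaller domains, while 33.8% and 29.4% were covered to over 50%. A domain begins and ends with a peak, which raises the covered share most when peaks are few. With the mean peak length set against the sum of mean length and mean gap, which removes that end effect, the medians were 41.2% and 31.8%, a difference of 9.43 percentage points. In domains of 7 and of 8 peaks these medians were 38.2 and 39.9%, so most of the difference was already present at 7 peaks. Counted per length, crowded domains held a median of 13.8 peaks per 100 kb and the smaller ones 16.6. Crowded thus stands for many peaks in a row, not for more peaks per kb of span, which longer peaks and the missing outer gaps of small domains both affect.

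**Figure D2:**
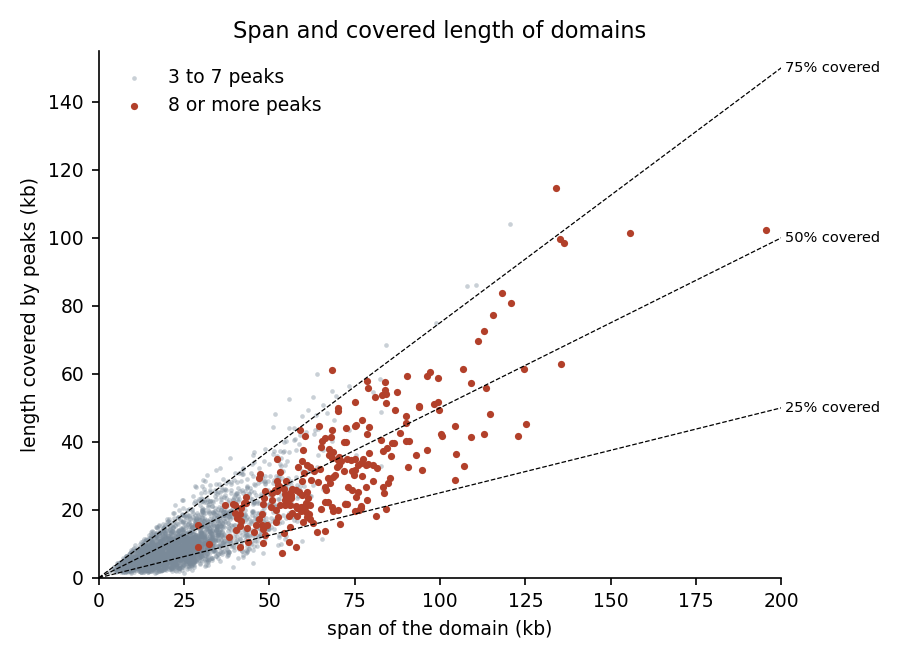
Length covered by peaks (vertical axis, kb) against span (horizontal axis, kb) for each domain of 3 to 7 peaks (grey) and of 8 or more (red), with dashed lines at 25, 50 and 75% covered. Most red points lie between the 25 and 50% lines, around the median of 43.9%, and 12 of 240 lie under 25%.

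Peaks in crowded domains were longer and had shorter gaps between them. The median peak length was 2221 bp (quartiles 924 and 4357 bp, n = 2337 peaks), compared with 1796 bp (818 and 3302 bp, n = 11376) in domains of 3 to 7 peaks, 1472 bp in pairs and 1274 bp in single peaks. The median inner gap was 3442 bp (quartiles 1436 and 6759 bp, n = 2097 gaps) against 4177 bp (1753 and 7632 bp, n = 8496) in the smaller domains. Gaps under 1 kb made up 16.5% and 14.0% of the gaps of the 2 classes, and gaps over 10 kb 9.87% and 11.9%. The gap distributions overlapped over nearly their whole range, since the rule caps gaps in both classes.

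**Figure D3:**
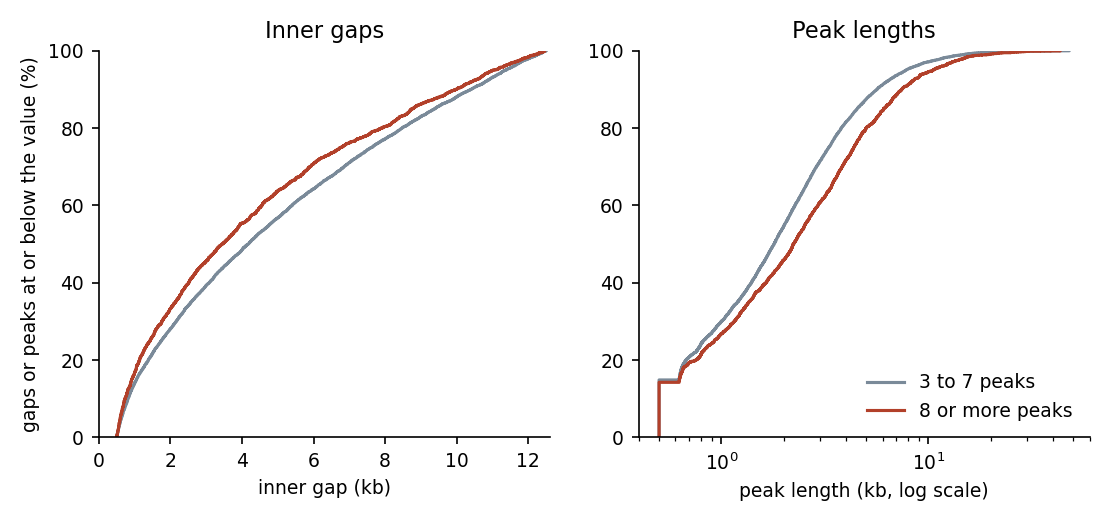
Cumulative share (vertical axis, %) of inner gaps (left, kb) and of peaks (right, length in kb, log scale) at or below each value, for domains of 3 to 7 peaks (grey) and of 8 or more (red). The red gap curve lies to the left of the grey one (medians 3442 and 4177 bp) and the red length curve to the right above the 500 bp step (medians 2221 and 1796 bp).

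Long peaks were more frequent in crowded domains, while the shortest peaks were about as frequent as in domains of 3 to 7 peaks. Peaks over 5 kb made up 19.98% of crowded peaks (467) and 12.55% of those in domains of 3 to 7. Peaks of 10 kb or more numbered 127, or 5.43% against 2.86%, so that crowded domains held 21.9% of the 580 such peaks on the numbered chromosomes. Domains of 7 peaks already had shares of this size, 5.57% of peaks at 10 kb or more and 17.2% over 5 kb. Peaks of 500 bp, the list's shortest common length, were 14.2% of crowded peaks (333) and 14.9% of those in domains of 3 to 7, compared with 17.7% in pairs, 19.7% among single peaks and 17.2% over all numbered chromosomes. Of the 240 crowded domains, 181 held at least 1 peak of 500 bp, 192 held a peak of 5 kb or more, and 142 (59.2%) held both. Such counts grow with the number of peaks by construction, and both kinds were found in 14.1% of domains of 3 to 7 peaks and in 41.9% of those of 7.

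On either side of the minimum, covered share, peak length and gaps were close, while peaks of 500 bp were not equally frequent. The 136 domains of 7 peaks had a median covered share of 41.9%, and the 101 domains of 8 peaks had 43.2%. Median peak lengths were 2133 and 2216 bp, and median inner gaps 3960 and 3670 bp. The share of 500 bp peaks was 11.1% in domains of 7 and 15.1% in domains of 8, and 58.1 and 71.3% of these domains held at least 1. From domains of 3 peaks upwards, the median peak length rose from 1618 to 2133 bp at 7 peaks. The contrast with crowded domains thus did not begin at 8. Above 8 peaks the median length was uneven, with 2112 bp at 9 peaks, 1909 bp at 10 and 2548 bp at 11. Among the crowded domains themselves, the number of peaks and the covered share were weakly related (Spearman's rho 0.095 across 240 domains of 1 list).

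Crowded domains differed widely from each other in make-up. Covered share went with the longest peak (Spearman's rho 0.733 across 240 domains), a pair of values that share the same peak lengths. It went down with the number of 500 bp peaks (rho -0.250). Domains with longer median peaks tended to have shorter median gaps (rho -0.264), as they did more weakly among domains of 3 to 7 peaks (rho -0.120, 2880 domains). These are descriptions across regions that come from the same library.

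Positions are given in the coordinates of the deposited file, whose genome build is not named, so no gene was assigned to any domain. The 2 domains of 18 peaks both lay on chromosome 5. The first ran from 154876803 to 154989779, with 72.5 kb covered, or 64.2% of 113.0 kb, and a median gap of 1238 bp. Its longest peak, 12.3 kb, was the ninth, and the sixteenth was nearly as long at 11.9 kb. The other ran from 161356911 to 161481422 and was covered to 49.3%, with a median gap of 3123 bp and a longest peak of 10.1 kb. No single peak made up more than 17.0% of the covered length in either, and the 4 longest peaks of the first and the 5 longest of the other were needed to reach 50% of it. The domain of 17 peaks on chromosome 20 (6430568 to 6546087) also needed 5, with 66.9% covered, no peak of 500 bp and a longest peak of 10.6 kb that held 13.7% of its covered length.

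Of the 9 domains of 16 peaks, the 7 with the most covered length showed other patterns. On chromosome 3 (168689684 to 168810443) a single peak of 38.5 kb held 47.5% of the covered length and was 4.23 times as long as the next. It stood seventh among 16 peaks, and the median peak of the domain was 2158 bp, so 1 long block was flanked by many short ones. On chromosome 1 (211655796 to 211811527) the covered length was the largest of these domains, 101.4 kb, and the longest peaks stood at the right end, with 15.1, 18.9 and 9.51 kb in the last 3 places. On chromosome 10 (109001880 to 109137308) peaks of 21.5 and 12.1 kb stood in the second and the third place, while the median peak was 889 bp and the median gap 4755 bp.

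The other 4 of these domains were on chromosomes 12, 18 and 5. The domain on chromosome 12 (38782326 to 38893423) was covered to 62.7%, with its longest peak of 15.4 kb in the second place. Chromosome 18 held 2 domains, covered to 53.3% (60377721 to 60471678) and 53.0% (78825861 to 78915754). Their longest peaks, 11.9 and 16.7 kb, stood near opposite ends, in the fourteenth and the second place. The third domain of chromosome 5 (150613241 to 150735972) was the most thinly covered of the 10, at 33.9% of 122.7 kb.

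**Figure D4:**
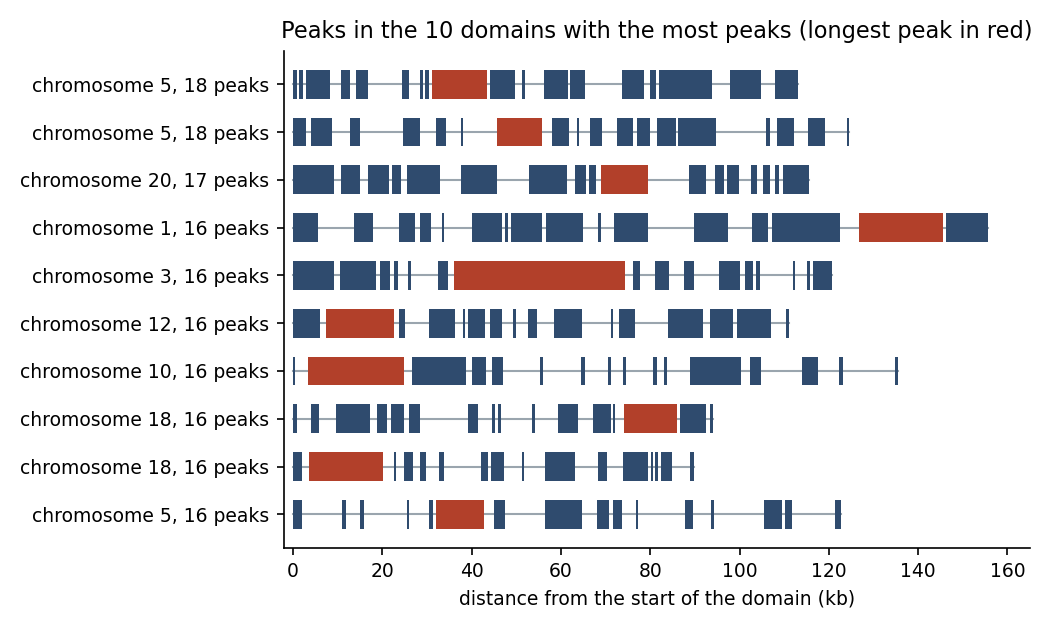
Peaks (boxes, to scale) in the 10 domains with the most peaks, against the distance from the start of each domain (horizontal axis, kb), with the longest peak of each in red and rows in order of peak number and covered length. The longest peak ranges from 10.1 kb on chromosome 5 to 38.5 kb on chromosome 3 and stands at no fixed place.

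The extremes of covered share came from domains of 8 or 9 peaks. A domain on chromosome 7 (117801616 to 117869965) was covered to 89.2% by 8 peaks, including 1 of 30.3 kb, and had the shortest median gap of all crowded domains, 688 bp. On chromosome 1 (274473001 to 274606971) 9 peaks covered 85.5% of 134.0 kb. Peaks of 20.1, 34.5 and 28.8 kb stood in places 3, 4 and 6, and 6 of its 8 gaps measured between 594 and 1284 bp. A domain on chromosome 12 (43365962 to 43444466) came next with 73.8%. At the other end, 8 peaks on chromosome 1 (127410017 to 127463868) covered 13.7% of 53.9 kb. Of these, 5 had the length of 500 bp and the longest measured 2.28 kb. Domains on chromosomes 11 (73178278 to 73236052) and 14 (33543485 to 33599133) were covered to 15.7 and 18.95%, the latter with the longest median gap, 8368 bp. The same number of close peaks thus stood for 61.0 kb of acetylated chromatin on chromosome 7 and for 7.36 kb on chromosome 1.

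Further extremes were found by span and peak length. The longest span belonged to a domain of 15 peaks on chromosome 1 (227976877 to 228172314, 195.4 kb), and the shortest to 8 peaks on chromosome 3 (169551504 to 169580574, 29.1 kb). The longest single member, 43.3 kb, was the first of 9 peaks of a domain on chromosome 9 (80967916 to 81086019) and held 51.7% of its covered length. The most peaks of 500 bp, 7 of 14, were in a domain on chromosome 3 (13235454 to 13340216). Its 2 longest peaks, 7.12 and 15.4 kb, were the last in line.

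The place of the longest peak was spread over crowded domains. The longest peak was the first in 20 domains and the last in 23, which makes 17.9% of domains with the longest peak at an edge. Edge places were on average 21.4% of the places in these domains. In domains of 3 to 7 peaks the same shares were 52.0 and 54.4%. In both classes the longest peak was at an edge slightly less often than edges occur among the places. The direction turned for the 17 crowded domains obtained by stitching within 5 kb, where 29.4% had the longest peak at an edge and edge places were 23.9%. First and last peaks of crowded domains had a median length of 2121 bp, compared with 2266 bp for inner peaks. Edge gaps had a median of 3928 bp and inner gaps 3311 bp. In domains of 3 to 7 peaks the peak lengths were 1705 and 1893 bp and the gaps 4264 and 3998 bp. These values are pooled over domain sizes. Both gaps of a 3-peak domain are edge gaps, so inner gaps come only from larger domains. Domains of 3 peaks also had shorter peaks (median 1618 bp, against 2133 bp at 7 peaks) and wider gaps (median of domain medians 5039 bp, against 3858 bp). The contrast in this class thus partly reflects domain size by construction. The interquartile ranges overlapped for every one of these pairs. In crowded domains first peaks had a median of 2205 bp and last peaks 1993.5 bp, so the difference in length lay mostly in the last peaks. Peaks of 500 bp were 13.1% of edge peaks and 14.5% of inner ones there. Edge medians were thus slightly lower for length and higher for gaps in both classes, with the mix of domain sizes not removed.

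**Figure D5:**
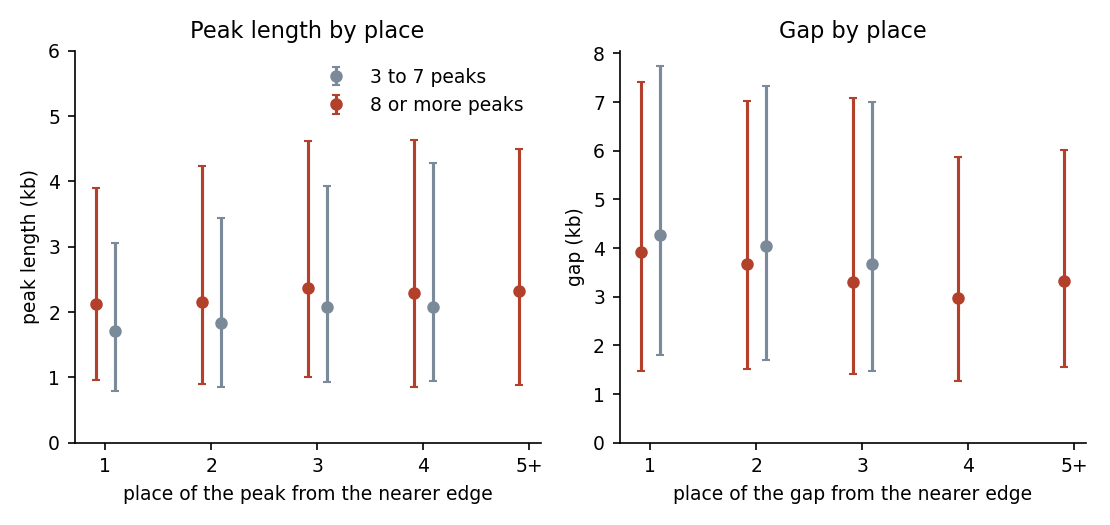
Median peak length (left, kb) and median gap (right, kb) by place counted from the nearer edge of the domain, with bars from the lower to the upper quartile, for domains of 3 to 7 peaks (grey) and of 8 or more (red). In crowded domains the median length goes from 2121 bp at the edge to 2362 bp in place 3 and the median gap from 3928 bp to 2966 bp in place 4, with overlapping bars. Values are pooled over domain sizes, and places far from an edge come only from the larger domains.

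Covered length was concentrated in few peaks, in smaller domains as well as in crowded ones. The longest peak held a median of 28.8% of the covered length of a crowded domain (quartiles 23.3 and 34.5%), and the 2 longest together held 49.2%. Only 7 domains had over 50% in 1 peak, with a highest share of 62.8%. The longest peak was a median of 1.41 times as long as the next and at least 2 times as long in 51 domains (21.3%). These values were 1.61 and 35.5% in domains of 3 to 7 peaks, and 1.45 and 22.8% in those of 7. In domains of 3 to 7 peaks the longest peak held 47.8% and the 2 longest 77.9%, but such shares fall with the number of peaks by construction. In domains of 7 and of 8 peaks the longest peak held 33.1 and 31.0%, and the 2 longest held 55.6 and 51.9%.

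The 2 longest peaks of a crowded domain stood side by side in 73 of 240 domains, or 30.4%, where neighbours are on average 21.4% of all pairs of places. In domains of 3 to 7 peaks these values were 55.6 and 54.4%. In domains of 7 peaks they were 29.4 and 28.6%, and in domains of 8 peaks 34.7 and 25%. In crowded domains the 2 longest peaks were thus neighbours more often than places are, by 8.98 percentage points, a difference that was not tested. In domains of 3 to 7 peaks it was 1.18 percentage points. Peaks next to the longest of a crowded domain had a median of 2047 bp and the remaining ones 1903 bp. Gaps next to the longest peak had a median of 3220 bp against 3557 bp elsewhere. Domain by domain, the mean gap next to the longest peak was the shorter in 57.1% of crowded domains. That share was 57.4% at 7 peaks, 51.5% at 8 and 53.5% in domains of 3 to 7 that had other gaps. The lengths were 1927 and 1740.5 bp in domains of 7 peaks, with gaps of 3427.5 and 4043 bp. They were 2021 and 1805 bp in domains of 8 peaks, with gaps of 3588 and 3702 bp. In domains of 3 to 7 the lengths were 1324 and 1359 bp, with gaps of 4086 and 4234 bp. Except at 7 and at 8 peaks, these values are pooled over domain sizes. Small domains, whose peaks were shorter, have few places away from the longest peak, and this mix of sizes was not removed. Of the inner peaks, 32.5% were longer than both neighbours and 30.2% shorter than both, close to the 34.3 and 30.5% in the smaller domains.

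Most crowded domains held gaps over 5 kb. Cutting them at every gap over 5 kb gave a median of 4 pieces, the largest of which held a median of 4 peaks. Only 7 domains stayed whole and 17 (7.08%) kept a piece of 8 or more peaks. Cutting at gaps over 10 kb gave a median of 2 pieces and left 99 domains (41.3%) whole. The largest gap of a crowded domain had a median of 10503 bp. This median was 8270 bp in domains of 3 to 7 peaks and 9907 bp in those of 7. The largest gap, the number of pieces and the chance of a gap over 5 kb grow with the number of gaps by construction. The cuts were not compared with smaller domains, so they describe crowded domains without setting them apart.

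Around the crowded domains, other peaks were near. The next peak outside lay at a median distance of 24.8 kb on either side (480 sides), compared with 31.3 kb for domains of 3 to 7 peaks, 26.5 kb for those of 7 and 27.01 kb for those of 8. The rule sets the lower limit of these distances, 12.5 kb, in each class. On the nearer side it lay within 15 kb for 65 of 240 crowded domains (27.1%) and within 25 kb for 185 (77.1%), against 20.5 and 61.8% of the smaller domains. The nearest other crowded domain was a median of 1.73 Mb away (quartiles 0.338 and 6.40 Mb), and 36 domains had one within 100 kb. The 3 closest pairs were separated by a single peak-free gap of 12.9 kb on chromosome 3 (13235454 to 13340216 and 13353112 to 13409034), 13.3 kb on chromosome 16 (47125261 to 47215151 and 47228464 to 47270285) and 15.2 kb on chromosome 19 (36769771 to 36839838 and 36855024 to 36901993). The pair on chromosome 3 held 14 and 8 peaks and lay just outside the stitching distance.

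Each numbered chromosome carried crowded domains, from 6 on chromosomes 13 and 19 to 25 on chromosome 1. On average 7.37% of a chromosome's peaks ± 2.06 (SD over chromosomes, n = 20) belonged to them. Chromosome 20 had the most per peak, with 13 domains holding 12.8% of its 1001 peaks, and was followed by chromosome 10 with 24 domains and 10.0%. Chromosome 8 had the fewest domains per peak, 9 among 1847 peaks (5.04% of peaks), and the lowest share of peaks was on chromosome 9, 4.47%. The share was related to the density of peaks on the chromosome (Spearman's rho 0.484, Pearson's r 0.522, n = 20), and both are computed from the same peaks. Chromosome 18 had 9.63% of its peaks in crowded domains at 11.3 peaks per Mb, and the lowest share of peaks in domains of 3 to 7, 26.2%. The median covered share of crowded domains ranged from 33.5% on chromosome 11 to 52.8% on chromosome 19, each from 6 or 7 domains.

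Crowding and covered length picked overlapping sets. Among the top 5% of domains by covered length (910 domains, each with at least 14.2 kb covered) were 225 crowded domains. They made up 93.8% of the crowded domains and 24.7% of that top 5%, while 67.4% of it had 3 to 7 peaks. Of the 50 domains with the most covered length, 35 were crowded. A large covered length goes with many peaks by construction, so this overlap is a description.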

How the data were processed

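H3K27ac and input libraries (1 each) were made by the submitters, and 1 peak list was deposited, with chromosome, start and end and no score. Per the submitters' processing notes, the tools included CASAVA 1.8.2, Bowtie and HOMER, with no role stated for any of them. The way peaks were thresholded, any use of the input, and the genome build were not given in the sources used here. Coordinates are in the build of the deposited file, with 1 added to each start as for BED files. The gene table at hand (GRCr8) ends before the last peak on 13 of the 20 numbered chromosomes, so no gene or sequence was assigned to any domain.

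Peaks on numbered chromosomes were sorted and joined across gaps of 12500 bp or less, using pandas 2.3.3 and numpy 2.4.6 in Python 3.11.15, with scipy 1.17.1 for correlations and matplotlib 3.10.9 for figures. Stitching was tested on simulated data. Covered share is summed peak length over span. The members, classes and measures were chosen with earlier results of these data known. Named regions are the 10 domains with the most peaks, the extremes of covered share, span, gap, peak length and 500 bp peaks, the 3 closest pairs, and the chromosomes with the most and fewest crowded domains per peak. Chromosomes 1, 9, 10, 11, 13, 18 and 19 were named after their values were seen. No test was run. Alternatives were other stitching distances, other minimum numbers of peaks, a list without 500 bp peaks, merging of close peaks, and X added.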

Additional observations from a re-analysis of the deposited data

How the results depend on the processing

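The comparisons of length, gap and covered share with smaller domains kept their direction under all 7 alternatives, while the number and size of crowded domains followed the rule. Each alternative joined peaks of the same list by the same kind of gap rule. The shared direction can therefore come in part from that rule and is no independent support. Within 5 kb, 25 kb, with a minimum of 6 or 10 peaks, without 500 bp peaks and with peaks under 1 kb apart merged, there were 17, 698, 597, 90, 124 and 144 crowded domains in place of 240. In the same order they held 0.444, 25.3, 14.3, 3.38, 4.54 and 4.53% of peaks in place of 7.26%, and had median spans of 48.8, 103.5, 51.1, 84.6, 71.8 and 75.7 kb in place of 68.2 kb. The longest peak held 30.2, 25.6, 32.2, 24.6, 25.7 and 30.3% of covered length in place of 28.8%. It was at an edge in 29.4% of domains within 5 kb, 25.1% with 6 peaks, 11.1% with 10 peaks and 12.1% without 500 bp peaks, in place of 17.9%; edge places were 23.9, 27.5, 17.0 and 21.3% of places there, so the direction turned within 5 kb. Within 5 kb, the differences from smaller domains were 1.89 percentage points in covered share (5.15 as reported), -180 bp in gap (-735) and 870 bp in peak length (425), from 17 domains. Within 25 kb the gap difference was -1406 bp. Adding X gave 245 crowded domains. A value counted as moved when it left the 95% binomial interval of the reported one (for medians, of their order statistics). For counts the limit was a factor of 1.5. For differences of medians, the range combined the opposite ends of the intervals of the 2 medians. Such a range is wider than a 95% interval, for the gap from -1054 to -344 bp, so a difference was less readily called moved. All these intervals treat regions as independent. No paired analysis was possible because each group has 1 library. There is also no leave-one-out value, and how far depth limits weak peaks is unknown.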

Other observations

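X, which the rule left out, held 5 domains of 8 or more peaks with 55 peaks, or 6.95% of its 791 peaks. A group of 3 lay within 1 Mb, from 115145864 to 115221329 (11 peaks, 48.8% covered), from 115556821 to 115640509 (12 peaks, 32.7%) and from 115935114 to 116005157 (8 peaks, 27.4%). The others ran from 70008641 to 70103287, with 16 peaks and 34.2% covered, and from 72572567 to 72623878, with 8 peaks and 25.3%. The longest peaks of these 5 domains measured from 4.66 to 8.62 kb, and none reached the 10 kb that 93 of the 240 domains on numbered chromosomes held.

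Peaks of crowded domains were spread over the whole order of rows in the deposited list, whose meaning is not given. Their median row was 15498, against 16086 for peaks in domains of 3 to 7. They made up 8.52% of the numbered-chromosome peaks in the first 3300 rows and 6.17% in the last 3300. In the first 1000 rows the share was 7.39%, near the 7.26% over all rows, so it did not fall steadily. Peaks in domains of 3 to 7 made up 35.8% in the first 3300 rows and 33.7% in the last 3300.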
